A study of Mus musculus with 2 samples.

Results

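The primary granule genes are here 7 genes, Mpo, Elane, Prtn3, Ctsg, Ms4a3, Nkg7 and Igsf6, chosen by symbol among the 31053 genes of the deposited matrices. All 7 were found in both matrices. They were read in kept cells, each with 500 or more genes seen and a mitochondrial share of its UMIs no higher than 10% (unique molecular identifiers, each standing for 1 captured RNA molecule). This left 3914 cells of the vehicle library and 3756 of the AG120 library. The cells were mouse leukemia progenitors named I1DN, sorted by flow cytometry as cKit+ and Cd11b-. The 2 groups were cells from mice that received vehicle for 5 days and cells from mice that received the inhibitor AG120 for 5 days. AG120 (AG-120, ivosidenib) inhibits the mutant form of the metabolic enzyme IDH1. All samples of both groups share the I1DN model, and how many mice stand behind a library, their age and their strain are not given in the sources used here. Each group has 1 library, so no test between groups exists: every value compares 2 libraries, without a replicate check, and every interval (95%) covers counting error alone.

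Primary (azurophil) granules form at the promyelocyte stage, when a neutrophil precursor makes large amounts of microbicidal proteins and stores them. Myeloperoxidase, from Mpo, turns hydrogen peroxide into hypochlorous acid. Elane, Prtn3 and Ctsg encode the serine proteases neutrophil elastase, proteinase 3 and cathepsin G. The other 3 genes encode membrane proteins rather than granule contents. Ms4a3 is a tetraspan protein of granulocyte-monocyte progenitors. Nkg7 sits in the membrane of cytotoxic granules and is best known in natural killer and T cells. Igsf6 is a receptor-like protein of the immunoglobulin superfamily found in myeloid cells. Klf1 is the erythroid Krüppel-like factor, a transcription factor of red cell precursors, and cells that make red cell proteins do not build azurophil granules.

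The genes lie at separate loci except for 1 pair. Mpo is at chr11:87793581-87804413 on the plus strand (GRCm38), where it overlaps the antisense model Gm11505. Prtn3 (chr10:79874476-79883174) and Elane (chr10:79886247-79888215) are neighbours on the plus strand with 3072 bases between their annotated ends, and the first model of Prtn3 overlaps Plppr3 on the minus strand. Ctsg is at chr14:56099881-56102574 and Ms4a3 at chr19:11629496-11640851, both on the minus strand. Nkg7 is at chr7:43437073-43438249 on the plus strand, and Igsf6 at chr7:121064067-121074572 on the minus strand, inside the span of Mettl9 on the plus strand. Whether the counting used strand is not given in the sources used here, so reads of Mpo, Prtn3 and Igsf6 cannot be told apart from reads of these partners where the models overlap.

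The upstream stretches of Mpo and of the protease genes are shown because these 4 genes encode the granule contents, because Elane goes apart from the other 3 between libraries, and because the 7 letters AGGAAGT occur in each of them. Of the 7 members, these 4 held AGGAAGT, a core bound by the transcription factor PU.1 (Spi1), in the RefSeq window from 250 bases before to 50 after the gene start (GRCm38.p6). Ms4a3, Nkg7 and Igsf6 did not. Of 32851 RefSeq windows of the same 300 bases, 9.35% held it on either strand. The motif was picked after these sequences had been read, so the count is a description. Each stretch runs 5′ to 3′ on the gene's strand and is cut to bases that no annotated exon covers; capitals mark AGGAAGT. Mpo covers chr11:87793534-87793580, Elane chr10:79886062-79886246, Prtn3 chr10:79879417-79879613 and Ctsg chr14:56102575-56102824 (minus strand).
Mpo: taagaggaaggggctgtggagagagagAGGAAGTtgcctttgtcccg
Elane: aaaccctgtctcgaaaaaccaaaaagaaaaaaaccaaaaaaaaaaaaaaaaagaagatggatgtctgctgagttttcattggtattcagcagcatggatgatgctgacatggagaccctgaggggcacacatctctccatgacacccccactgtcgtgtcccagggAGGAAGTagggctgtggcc
Prtn3: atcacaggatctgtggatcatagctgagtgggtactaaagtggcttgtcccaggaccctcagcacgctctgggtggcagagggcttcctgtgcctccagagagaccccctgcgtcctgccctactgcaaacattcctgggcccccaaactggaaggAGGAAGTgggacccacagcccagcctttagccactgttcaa
Ctsg: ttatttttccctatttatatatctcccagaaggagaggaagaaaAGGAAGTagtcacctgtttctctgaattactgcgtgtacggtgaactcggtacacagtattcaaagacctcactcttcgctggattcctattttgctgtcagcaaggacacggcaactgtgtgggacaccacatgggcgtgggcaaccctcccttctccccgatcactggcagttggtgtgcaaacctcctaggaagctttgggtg
In Elane and Prtn3 the motif lay 84 and 94 bases before the RefSeq start, against 223 in Mpo and 206 in Ctsg. Elane and Prtn3, the neighbours, also held AACGG, the core bound by MYB, 50 and 55 bases before the start (17.4% of windows on either strand). The letters TTGCNNAA of C/EBP factors occurred in the window of Ms4a3 alone among the members (10.8% of windows). A match is a run of letters, not a measured binding site, and no match speaks only of this window.

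The libraries differed in depth and in the cells they held, and this touches every value below. Kept cells carried a median of 13156.5 UMIs (vehicle) and 25681.5 (AG120), and 17 cell barcodes occurred in both sets of kept cells. Shares of cells were therefore read after each cell had been thinned at random to 6500 UMIs, which left 3553 vehicle and 3625 AG120 cells and dropped 361 and 131 shallower ones. In thinned cells the sorted markers were seen in few cells: Kit in 30.1% and 17.4%, and Itgam, which encodes Cd11b, in 3.12% and 0.690% (vehicle and AG120). Klf1 was seen in 5.35% of vehicle and 64.5% of AG120 cells, and the progenitor antigen Cd34 in 64.3% and 5.43%. In such summed values, fewer cells of a type and less RNA per cell cannot be told apart.

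Of the 7 genes, 6 were lower in the AG120 library when UMIs were summed over kept cells, and Elane was not. Levels are given in CPM, the library's UMIs scaled to a fixed total. Lower and higher mean by 1.2-fold or more, and nothing is tested. Of 9419 genes with at least 500 UMIs over both libraries, 42.2% were lower and 28.8% higher by this measure. The median log2 ratio (AG120 over vehicle) of the 7 genes was −1.62, against −0.12 over all genes measured.

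Mpo was at 1294 CPM in the vehicle library and 422 CPM in the AG120 library, 3.06-fold lower (3.03 to 3.1). Prtn3 was at 465 and 190 CPM, 2.45-fold lower (2.40 to 2.49). Ctsg was at 401 and 147 CPM, 2.73-fold lower (2.67 to 2.79). These 3 granule contents thus went down by like amounts. In these summed counts the membrane proteins went down further. Ms4a3 was at 703 and 109 CPM, 6.44-fold lower (6.30 to 6.58), and 2.70% of measured genes had a lower ratio. Nkg7 was at 367 and 105 CPM, 3.51-fold lower (3.43 to 3.59). Igsf6, the gene with the fewest UMIs, was at 26.7 and 7.74 CPM, 3.45-fold lower (3.16 to 3.77). With each cell weighted equally all 6 drops were smaller. The log2 ratios were then −1.11 for Mpo, −0.67 for Prtn3 and −0.78 for Ctsg. Ms4a3 was then at −2.29, Nkg7 at −1.35 and Igsf6 at −1.12, so Igsf6 went down about as much as Mpo. Elane stood at 96.6 CPM in the vehicle library and 105 CPM in the AG120 library, a ratio of 1.09 (1.05 to 1.12). Other weightings of the cells gave more: the ratio was 1.84 after thinning, and the log2 ratio was 0.88 after thinning and 1.03 with each cell weighted equally, against 0.12, so that Elane then counted as higher. On the log2 scale the ratio of Elane exceeded that of Mpo by 1.74 (1.69 to 1.79), which does not depend on how the libraries are scaled.

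**Figure D1:**
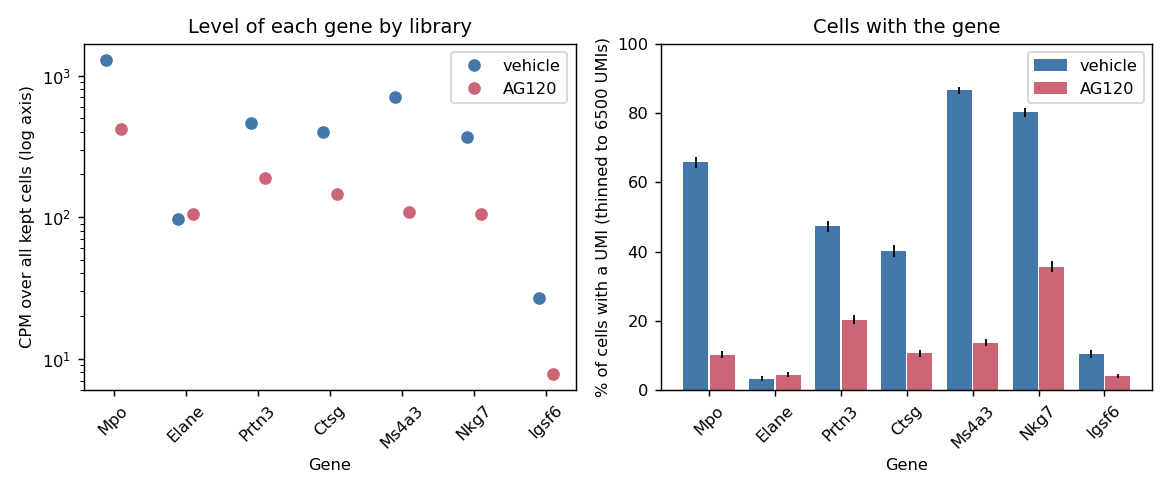
Level and spread of the 7 genes by library. The left panel gives CPM over all kept cells on a log axis, 1 point per library; the right panel gives the percentage of cells with a UMI after thinning to 6500 UMIs, with 95% Clopper-Pearson intervals. Elane is the gene whose points lie together on the left, at 96.6 and 105 CPM (its ratio was 1.84 after thinning), and it was seen in few cells of both libraries.

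The drop in Mpo went with a drop in the number of cells that carried it. Mpo was seen in 65.9% of thinned vehicle cells (64.3 to 67.4) and 10.2% of AG120 cells (9.19 to 11.2). Ms4a3 was seen in 86.6% and 13.7%, and Nkg7 in 80.2% and 35.7%. Prtn3 was seen in 47.3% and 20.4%, Ctsg in 40.2% and 10.6%, and Igsf6 in 10.4% and 4.03%. Elane alone was seen in a slightly larger share of AG120 cells, 4.41% (3.77 to 5.13) against 3.29% (2.73 to 3.93). Without thinning Mpo was seen in 70.4% and 12.8%, and Elane in 4.32% and 5.96%. As background, erythroid cells (Klf1-positive with at least 3 of 5 erythroid genes, given below) should lack these genes. In 1788 such AG120 cells, with a median of 28738.5 UMIs before thinning, Mpo was seen in 0.727%, Elane in 0.280% and Igsf6 in 0.168%, whereas Prtn3 was seen in 12.6% and Nkg7 in 22.9%. In the 28 such vehicle cells (median 27334.5 UMIs) Mpo, Elane and Igsf6 were at 0, which leaves an upper limit of 12.3%. In the same 28 cells Nkg7 was seen in 46.4% (27.5 to 66.1), Ms4a3 in 21.4%, Prtn3 in 14.3% and Ctsg in 3.57%. In the AG120 library each gene's share lay above that in its erythroid cells; in the vehicle library it did so too, but for Elane and Igsf6 the interval from 28 cells reaches past the library share.

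The amounts per positive cell differed among the genes. In Mpo-positive cells the median was 5 Mpo UMIs in the vehicle library and 19 in the AG120 library, out of 6500. For Ms4a3 it was 5 in both libraries, and for Nkg7 2 in both. The AG120 library thus held fewer Mpo-positive cells with more Mpo each, and fewer Ms4a3-positive cells with about the same Ms4a3. Elane was the most concentrated gene: 11 vehicle cells and 19 AG120 cells held 50% of its UMIs, and the richest 1% of cells held 82.5% and 70.2%. For Ms4a3, 824 vehicle cells and 108 AG120 cells were needed to reach 50%.

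Single cells mostly carried some members in the vehicle library and none in the AG120 library. Of thinned vehicle cells, 46.6% (45 to 48.3) had a UMI of at least 4 of the 7 genes and 3.18% had none. Of AG120 cells, 9.13% (8.21 to 10.1) had at least 4 and 53.8% had none. Vehicle cells peaked at 3 genes (21.2% of cells) and became rare at 6 (5.77%) and 7 (1.86%). AG120 cells fell to a low of 1.66% at 4 genes and then rose again, to 2.54% at 6 and 2.34% at 7. The share with all 7 genes was thus close in both libraries, with intervals of 1.44 to 2.36 and 1.88 to 2.89. At 3000 UMIs the shares with at least 4 genes were 27.1% and 8.08%, so the vehicle share depends on depth more than the AG120 share does. The share with none depends on depth too: without thinning it was 2.17% of vehicle and 27.0% of AG120 cells. The peaks then lay at 5 genes in the vehicle library (23.4%) and at 1 gene in the AG120 library (36.5%).

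**Figure D2:**
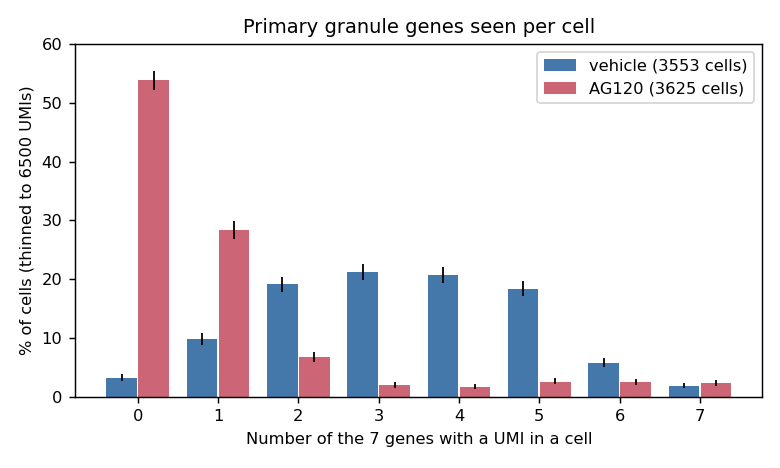
Number of the 7 genes seen in a cell. Bars give the percentage of cells of each library, thinned to 6500 UMIs, with 95% Clopper-Pearson intervals. Vehicle cells form 1 broad hump around 3 genes. AG120 cells peak at 0 (53.8%, against 27.0% without thinning) with a low of 1.66% at 4 genes and a small second rise at 5 to 7.

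The 7 genes agreed better over AG120 cells than over vehicle cells. Agreement was read as the Pearson correlation of log2(thinned UMIs + 1) over the cells of a library, for 21 pairs, as a description with no p, since cells of a library share its depth and its free RNA. The median over pairs was 0.29 in the vehicle library (0.06 to 0.74) and 0.62 in the AG120 library (0.35 to 0.94). All 21 pairs were higher in the AG120 library, and 4 vehicle and 16 AG120 pairs exceeded 0.5. With 3000 UMIs per cell the medians were 0.22 and 0.46. The Klf1-negative cells alone gave 0.28 and 0.61, so the contrast between libraries was as large without the Klf1-positive cells.

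The best pair in both libraries was Mpo with Ctsg, at 0.74 (vehicle, 3553 cells) and 0.94 (AG120, 3625 cells). Prtn3 with Ctsg reached 0.70 and 0.86, and Mpo with Prtn3 0.65 and 0.86. With Elane, these are the genes whose upstream stretches are printed above. Elane joined them less closely, at 0.38 with Mpo in the vehicle library and 0.73 in the AG120 library. By this measure its nearest partner was its neighbour Prtn3 in both, at 0.53 and 0.77. By Spearman's rank correlation it was not: Prtn3 stood at 0.304 and 0.473, below Igsf6 at 0.320 in the vehicle library and below Mpo at 0.636 in the AG120 library. Of the 117 vehicle cells with Elane, 94.9% also had Prtn3, and of the 160 AG120 cells 95% did. The reverse did not hold: among Mpo-positive cells, Elane was seen in 4.87% of the vehicle ones and 41.3% of the AG120 ones.

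The membrane proteins behaved differently in the vehicle library. Ms4a3 had a correlation of 0.29 with Mpo in the vehicle library and 0.85 in the AG120 library, the widest gap of any pair with Mpo. In the vehicle library Ms4a3 averaged 3.43 UMIs even in cells with 0 Mpo UMIs and 7.51 in cells with at least 32. In the AG120 library the same means were 0.116 and 10.3. Ms4a3 was thus spread over most vehicle cells, and in the AG120 library most of its UMIs lay in cells with Mpo. There 44.7% of Ms4a3 UMIs came from cells with at least 32 Mpo UMIs, 43.5% from cells with 1 to 31 and 11.7% from cells with 0. Nkg7 was the least tied gene, with correlations of 0.06 to 0.21 in the vehicle library and 0.35 to 0.51 in the AG120 library. Igsf6 followed the proteases, at 0.46 with Prtn3 in the vehicle library and 0.64 with Ctsg in the AG120 library.

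**Figure D3:**
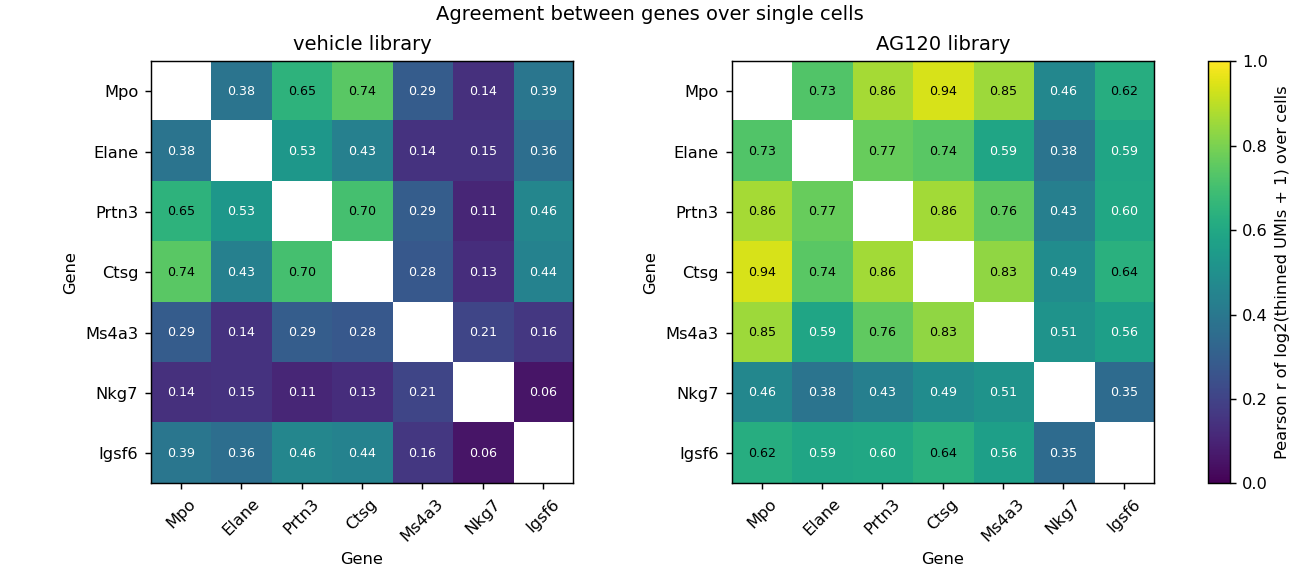
Agreement of each pair of genes over single cells. Each square gives the Pearson correlation of log2(thinned UMIs + 1) over 3553 vehicle cells (left) or 3625 AG120 cells (right); the diagonal is left blank. Mpo, Prtn3 and Ctsg form the brightest block in both panels, Nkg7 the dimmest row, and Ms4a3 joins the block on the right alone.

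Among cells rich in these genes the agreement was narrower. At least 10 summed UMIs were found in 2158 vehicle cells (60.7%) and 358 AG120 cells (9.88%). Within them the median correlation was 0.15 and 0.39, where the choice by the sum itself lowers correlations. Mpo with Ctsg remained at 0.70 and 0.81, whereas Mpo with Ms4a3 was at −0.19 in the vehicle library and 0.36 in the AG120 library. In 784 vehicle and 66 AG120 cells the sum lay between 8 and 12, near that limit.

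The genes most like the summed members, outside the list, were led by Plac8 in both libraries. Plac8, a small cysteine-rich protein of myeloid cells, had a correlation of 0.57 over vehicle cells and 0.82 over AG120 cells. Tyrobp, an adaptor of myeloid receptors, followed at 0.51 and 0.74. In the vehicle library the next were Pgam1 (0.48), Emb, Hp, Cd34, Atp8b4 and Clec12a (0.43). In the AG120 library they were Pkm (0.71), Pglyrp1, Fxyd5, Coro1a, Cpa3 and Tmsb4x (0.65). Elane was most like Hp (0.60), Rgcc and Lcn2 in the vehicle library and like Pglyrp1 (0.67), Prss57 and Plac8 in the AG120 library. Mpo was most like Plac8 in both (0.58 and 0.79).

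The UMIs of Elane and Mpo came from cells at different ranges of Mpo level. Thinned cells were divided into those with 0, with 1 to 31 and with at least 32 Mpo UMIs. Cells with 1 to 31 were 60.4% of the vehicle library (58.7 to 62.0) and 6.29% of the AG120 library (5.52 to 7.13). Cells with at least 32 were 5.52% (4.79 to 6.32) and 3.86% (3.26 to 4.54), 196 and 140 cells. The middle range was thus far rarer in the AG120 library, whereas the shares of Mpo-rich cells were closer. The limit of 32 was set after the data had been seen.

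Mpo drew on both ranges and Elane on the upper one. Per thinned cell of the vehicle library, the middle range gave 3.68 Mpo UMIs and the Mpo-rich cells 3.52. In the AG120 library the middle range gave 0.626 and the Mpo-rich cells 2.60. Most of the difference in Mpo therefore lay in the middle range. Per cell of the whole library, that range gave 0.0473 Elane UMIs (vehicle) and 0.0450 (AG120). On the same scale, Mpo-rich cells gave 0.419 and 0.813 Elane UMIs, which is 89.6% and 94.5% of all Elane UMIs. The middle range, of 2145 vehicle and 228 AG120 cells, thus added like amounts of Elane to both libraries, but from few vehicle cells. Of its 168 vehicle Elane UMIs, 105 came from 5 cells with 16 to 31 Mpo UMIs and 56 from 5 cells with 8 to 15. In the AG120 library 130 of 163 came from 24 cells with 16 to 31. Per cell of the middle range the mean was 0.0783 Elane UMIs in the vehicle and 0.715 in the AG120 library.

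Within Mpo-rich cells Elane was higher in the AG120 library at nearly the same Mpo. These cells had a mean of 63.8 Mpo UMIs in the vehicle library and 67.3 in the AG120 library. Elane had means of 7.60 and 21.1 UMIs, a ratio of 2.77 (2.60 to 2.95). Of 5030 genes measured in these cells, 29.4% were higher and 26.2% lower at 1.2-fold, and 39 genes (0.775%) had a higher ratio than Elane. Among the other members, Ms4a3 was at 1.37 (1.28 to 1.48) and Ctsg at 1.2 (1.14 to 1.26). Prtn3 at 1.13, Nkg7 at 1.10 and Igsf6 at 0.947 were within 1.2-fold.

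Fewer of the Mpo-rich cells lacked Elane in the AG120 library. Elane was at 0 in 50.5% of Mpo-rich vehicle cells (43.3 to 57.7) and 19.3% of AG120 ones (13.1 to 26.8). At least 50 Elane UMIs were found in 3.57% and 14.3%. Elane UMIs per 100 Mpo UMIs were 11.9 and 31.3 in Mpo-rich cells, and 6.50 and 26.7 over all thinned cells. The shift was therefore both in how many Mpo-rich cells had Elane and in how much they had. The ratio kept its direction at each Mpo limit tried: it was 3.5 with at least 16 Mpo UMIs and 2.40 with at least 64. In the next 2 ranges down, cells with 16 to 31 and with 8 to 15 Mpo UMIs, Elane was 3.45-fold (2.64 to 4.50) and 3.74-fold (2.25 to 6.06) higher in the AG120 library. There Elane was seen in 5 of 167 and 5 of 419 vehicle cells, and in 24 of 60 and 11 of 52 AG120 cells. These 2 ratios thus rest on few vehicle cells, and their intervals count UMIs rather than cells.

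Fixing the mixture of Mpo levels left the Elane ratio above 1. After thinning, mean Elane was 0.467 UMIs per vehicle cell and 0.861 per AG120 cell, a ratio of 1.84. With the AG120 means weighted by the vehicle library's Mpo ranges the ratio was 2.89, and with the vehicle means weighted by the AG120 ranges 2.79. For Prtn3 the ratio moved from 0.588 to 1.38 and 1.04, and for Ctsg from 0.525 to 1.43 and 1.15. For Ms4a3 it moved from 0.190 to 0.908 and 0.241. These weighted values average over ranges that differ. In cells with 0 Mpo UMIs, Prtn3 was at 0.407 (0.358 to 0.463) and Ctsg at 0.284 (0.223 to 0.359) of the vehicle level, whereas from 2 Mpo UMIs up both were higher in the AG120 library. The thinned ratio of Elane (1.84) exceeds the summed one (1.09), and depth moved with it. Before thinning, Elane-positive cells had a median of 20212 UMIs in the vehicle library, where all thinned cells had 13822, and 22786 in the AG120 library, where all had 26121. The part of depth in this was not tested.

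**Figure D4:**
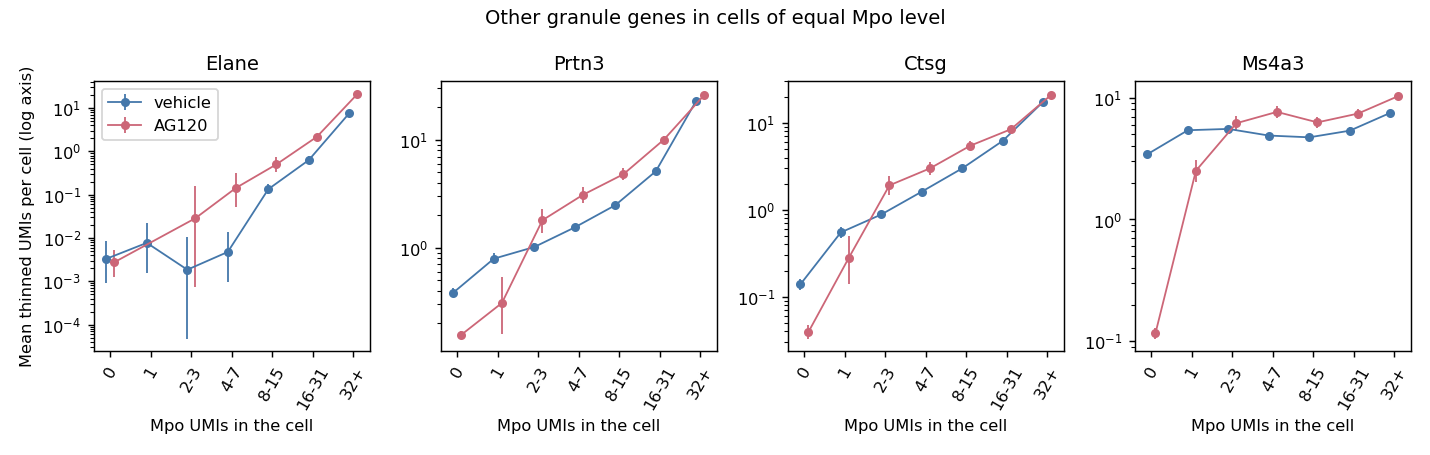
Elane, Prtn3, Ctsg and Ms4a3 in cells of equal Mpo level. The horizontal axis gives the Mpo UMIs of a cell after thinning, in 7 ranges; the vertical axis gives mean UMIs per cell (log axis, own scale in each panel) with 95% Poisson intervals, and a mean of 0 is left out. Elane is higher in the AG120 library from 8 Mpo UMIs up, whereas Ms4a3 differs most in cells without Mpo (3.43 against 0.116). With 4 to 7 Mpo UMIs Elane is higher there too (0.143 against 0.00476), on 3 positive cells in each library. With 8 to 15 and with 16 to 31 Mpo UMIs the vehicle Elane values rest on 5 positive cells each.

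The Mpo-rich cells of both libraries differed in other markers as well, whose part in the Elane difference was not tested. The neutrophil list (8 genes, such as Camp and Ngp) had a mean of 30.5 UMIs in the vehicle and 17.0 in the AG120 library, with medians of 1 and 3 and ranges of 0 to 1410 and 0 to 764. Mmp8 was at 0 in both. The eosinophil list (7 genes) had means of 1.74 and 30.7 and a median of 0 in both (0 to 310 and 0 to 1101). Of its defining genes, Epx was at 0 in the vehicle cells, and Ear1, Ear2 and Ear6 in both. The mast cell and basophil list had means of 3.56 and 7.67, the monocyte list 2.23 and 1.10, and the progenitor list 5.17 and 2.37. Without cells carrying at least 20 neutrophil-list UMIs the Elane ratio was 3.48, and without cells carrying at least 10 eosinophil-list UMIs it was 2.86, as large as before. Without the 10 cells of each library richest in Elane it was 3.33. These alternatives were chosen after the data had been seen.

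Mpo-rich cells with at least 10 Elane UMIs carried less Cd34 and more Cebpe than those without Elane. Mpo-rich cells were divided by 0, 1 to 9 and at least 10 Elane UMIs, which held 99, 54 and 43 vehicle cells and 27, 47 and 66 AG120 cells. Cd34 was seen in 92.9%, 81.5% and 74.4% of the vehicle cells, and in 66.7%, 68.1% and 37.9% of the AG120 cells. Cebpe, a transcription factor of the promyelocyte and later stages, was seen in 32.3%, 51.9% and 67.4%, and in 29.6%, 38.3% and 77.3%. The whole list of granulocyte-monocyte transcription factors did not rise: it averaged 9.19, 9.43 and 9.09 UMIs, and 8.81, 7.47 and 8.83. Cebpa was seen in 29.3%, 33.3% and 16.3%, and in 51.9%, 46.8% and 19.7%, so it was lowest at the last step. Spi1 was seen in 82.8%, 79.6% and 76.7%, and in 85.2%, 78.7% and 80.3%. Prss57, a further serine protease of primary granules, was seen in 44.4%, 79.6% and 83.7%, and in 55.6%, 70.2% and 90.9%. Prtn3 rose along the same steps, from 10.2 through 25.2 to 50.2 mean UMIs in the vehicle library and from 8.48 through 15.5 to 41.0 in the AG120 library. Cd34 did not fall from the first step to the next in the AG120 cells, and mean Cebpe was 1.19 and 1.17 UMIs there. Lists of other cell types moved along the steps too, and their part was not tested. The neutrophil list averaged 0.859, 8.17 and 127 UMIs in the vehicle cells and 1.19, 3.06 and 33.5 in the AG120 cells. The eosinophil list averaged 67.5, 38 and 10.4 in the AG120 cells. The single genes of this paragraph were picked after their values had been seen.

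Summed over kept cells, most other genes of granule content and of its control were lower in the AG120 library. Of 9 measured genes of other primary granule proteins, 7 were lower and 0 higher, with a median log2 ratio of −1.03. Over all genes measured, 42.2% were lower and 28.8% higher. Lyz2, lysozyme, was 7.59-fold lower, Cd63, a tetraspanin of the granule membrane, 2.48-fold lower, and Srgn, serglycin, the proteoglycan that packs granule proteases, 2.21-fold lower. Prss57 was 1.45-fold lower. Bpi, with 4 and 6 UMIs, was not measured.

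Among 7 genes that process or inhibit granule proteins, 4 were lower and 2 higher (median −0.27). These counts lie near the 42.2% lower and 28.8% higher of all genes measured, so they are not read as a trait of the list. Serpinb1a, an inhibitor of elastase, proteinase 3 and cathepsin G, was 7.85-fold lower (7.49 to 8.23). Ctsc, the dipeptidase that activates the serine proteases, was 1.23-fold lower. Cst7, cystatin F, an inhibitor of Ctsc, was 2.16-fold higher (2.06 to 2.26), and the chaperone Canx 1.46-fold higher. Inside Mpo-rich cells the values for Cst7 and Serpinb1a were far apart too: Cst7 was 5.43-fold higher (4.44 to 6.67) in the AG120 library, and Serpinb1a was at 0.972 (0.831 to 1.13). Srgn was 2.16-fold higher there, Cd63 1.59-fold and Prss57 1.37-fold higher, and Lyz2 5.98-fold lower. Within Mpo-rich cells the list of other primary granule proteins averaged 24.0 UMIs in the vehicle and 36.6 in the AG120 library. The processing list averaged 20.7 and 31.1, so both list sums were higher there in the AG120 library. Most of the first difference lay in Srgn (10.4 and 22.4 mean UMIs) and most of the second in Calr (8.63 and 14.8). The sums thus do not stand for each gene of a list, as Lyz2 was at 3.89 and 0.65.

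Of 9 measured transcription factors of the granulocyte-monocyte line, 7 were lower and 0 higher (median −1.52). Spi1, which encodes PU.1, was 5.21-fold lower, Irf8, a factor of monocytes, 6.41-fold lower and Cebpa 2.91-fold lower. Cebpe was 1.86-fold lower, and Cebpb (1.13) and Myb (1.07) were within 1.2-fold. Gfi1, with 50 and 52 UMIs, was not measured. All 9 measured secondary granule genes, which come on after the primary ones, were lower (median −1.88), from Chil3 at 1.47-fold to Camp at 7.44-fold lower. Lists and members were chosen with earlier results of these data known, so these counts are descriptions beside the 42.2% of all genes that were lower.

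Klf1-positive cells carried few granule transcripts, most clearly in the AG120 library. A cell was called Klf1-positive with at least 1 Klf1 UMI after thinning, which held for 190 vehicle and 2339 AG120 cells. In cells of the neutrophil list, which should lack Klf1, it was seen in 0 of 31 vehicle cells (up to 11.2%, median depth 18582) and 1 of 30 AG120 cells (3.33%, median depth 16992.5). Summed UMIs of the 7 genes averaged 20.2 in Klf1-negative and 6.18 in Klf1-positive vehicle cells, 3.27-fold less (3.09 to 3.47). In the AG120 library they averaged 22.0 and 1.05, 21-fold less (20.2 to 21.9). Klf1-negative cells thus had close means in the 2 libraries, and Klf1-positive cells did not.

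The medians show how differently those means arose. Klf1-negative cells had a median sum of 12 UMIs in the vehicle library and 1 in the AG120 library. At least 10 summed UMIs were found in 63.2% of Klf1-negative vehicle cells and 25.3% of Klf1-negative AG120 cells. The AG120 mean therefore rested on a smaller set of richer cells. Of Klf1-positive cells, 17.4% of the vehicle ones (33 cells) and 1.37% of the AG120 ones (32 cells) reached 10.

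The genes differed in how strictly they were kept out of Klf1-positive cells. Elane was the strictest: 5 UMIs in 2 of 190 vehicle cells and 17 UMIs in 7 of 2339 AG120 cells, 18.7-fold (8.0 to 57.7) and 332-fold (207 to 571) below Klf1-negative cells. Mpo was 9.83-fold and 79.0-fold lower, and Ctsg 6.90-fold and 53.7-fold. Prtn3 was 5.54-fold and 22.2-fold lower, and Ms4a3 2.08-fold and 15.6-fold. Nkg7 was the least strict, at 1.06-fold (0.962 to 1.17) in the vehicle library, where Klf1-positive and Klf1-negative cells could not be told apart, and 2.64-fold in the AG120 library. With Igsf6 left out, the order from Elane through Mpo, Ctsg, Prtn3 and Ms4a3 to Nkg7 was the same in both libraries. In the vehicle library the intervals of Mpo (8.36 to 11.7), Ctsg (5.37 to 9.01) and Prtn3 (4.49 to 6.92) overlap with their neighbours, and that of Elane covers that of Mpo. Igsf6 lay at 5.02-fold (2.29 to 13.7), below Prtn3, in the vehicle library. In the AG120 library it lay at 29.2-fold (16.7 to 55.8), above Prtn3, so the order of all 7 genes was not the same.

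Prtn3 and Nkg7 remained in erythroid cells where Mpo did not. In Klf1-positive AG120 cells Prtn3 was seen in 13.3% (12 to 14.8), Nkg7 in 28.1% and Mpo in 1.80%, against 33.1%, 49.5% and 25.3% of Klf1-negative ones. With rising Klf1 (1, 2, 3 and at least 4 UMIs) the Prtn3 share was 13.2%, 13%, 14.2% and 14.2%. The Mpo share was 2.68%, 0.937%, 1.81% and 0%, the last in 176 cells with an upper limit of 2.07%. Prtn3 thus showed no fall with Klf1 level. Neither did Ctsg, at 2.58%, 2.01%, 2.11% and 3.41%, nor Igsf6, at 0.461%, 0.268%, 0.904% and 0.568%. Nkg7 went from 31.6% (28.9 to 34.5) to 19.9% (14.3 to 26.6). Ms4a3 went from 6.09% (4.74 to 7.68) to 3.41% (1.26 to 7.27), with intervals that overlap. The vehicle library had 28 Klf1-positive cells with at least 3 of 5 erythroid genes (Gata1, Epor, Ermap, Rhd and Blvrb), in which Prtn3 was seen in 14.3% (4.03 to 32.7), close to the 12.6% of the AG120 cells. Of the genes whose models overlap members, Plppr3 (Prtn3) was seen in 0.428% of Klf1-positive AG120 cells. Gm11505 (Mpo) was seen in 0.0855% and Mettl9 (Igsf6) in 45.9%. Reads of an overlap that were counted for a member would not show in these shares, so the part of overlap was not tested.

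In Klf1-positive cells with under 10 summed UMIs of the 7 genes, more than 50% of those UMIs came from Nkg7 in both libraries. The values are shares of each gene in the summed UMIs, not levels per length. Over all thinned AG120 cells, Mpo made up 38% of the summed UMIs, Prtn3 17.0%, Elane 10.2% and Nkg7 10.2%. In the 2307 Klf1-positive AG120 cells with under 10 summed UMIs, Nkg7 made up 69.3% (67.0 to 71.5), Prtn3 19.5% (17.6 to 21.5) and Mpo 1.19%. Choosing cells under 10 UMIs leaves out those with many Mpo UMIs, so the low Mpo share is in part set by the choice. Klf1-negative AG120 cells chosen in the same way had Nkg7 at 62.8%, Prtn3 at 13.3% and Mpo at 4.53%. In the vehicle library the 157 Klf1-positive cells with under 10 had Nkg7 at 54.3%, Ms4a3 at 35.5% and Mpo at 3.51%.

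**Figure D5:**
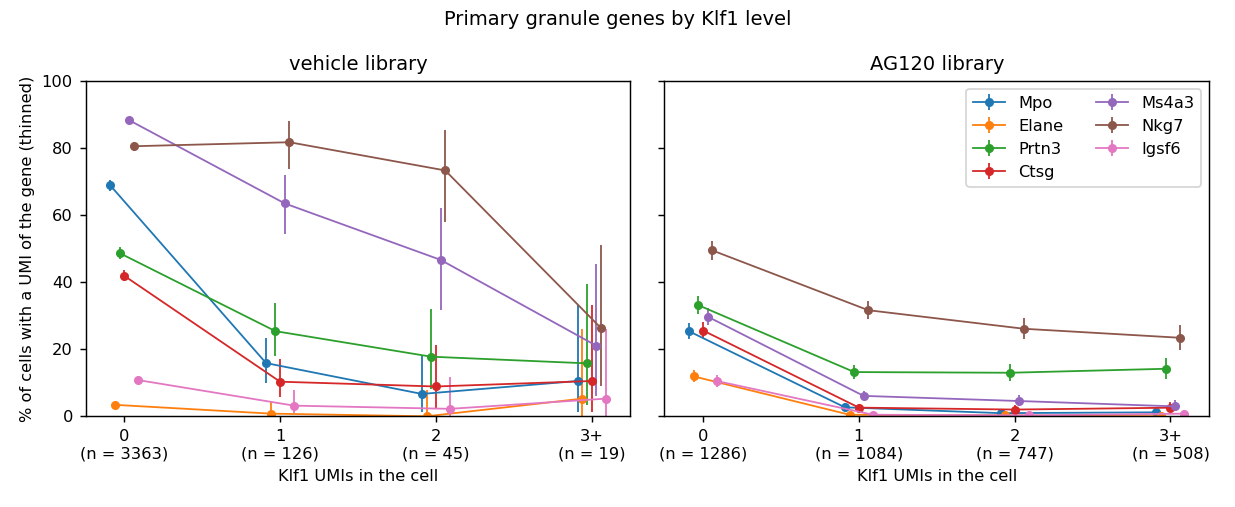
Share of cells with each gene by Klf1 level. The horizontal axis gives the Klf1 UMIs of a cell after thinning with the number of cells, and the vertical axis the percentage of those cells with a UMI of the gene, with 95% Clopper-Pearson intervals, in the vehicle (left) and AG120 (right) library. Prtn3 stays level at 13.2% and 13% from 1 to 2 Klf1 UMIs on the right, whereas Mpo lies near 0; the 19 vehicle cells with at least 3 Klf1 UMIs have wide intervals.

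Some cells held both Klf1 and many granule UMIs. The 33 such vehicle cells had a median depth of 15875 UMIs and the 32 AG120 cells 14810.5, against 27891 in the other Klf1-positive AG120 cells, so the AG120 ones were not the deep cells. Their Mpo share, 20.1% and 31.6% of the summed UMIs (vehicle and AG120), was nearer that of the library than in the cells with under 10. Choosing cells with at least 10 UMIs favours those with many Mpo UMIs, so this share is in part set by the choice. Elane made up 0.632% and 1.82%, against 2.40% and 10.2% over all thinned cells. Ms4a3 made up 39.3% and 27.4%, against 24.1% and 10.5%. Their make-up was thus not that of the library for every gene. The 32 AG120 cells averaged 9.31 UMIs of the mast cell and basophil list, against 0.124 in the other Klf1-positive and 8.18 in the Klf1-negative AG120 cells with at least 10 summed UMIs. The 33 vehicle cells averaged 2.39, against 3.74 in their Klf1-negative counterparts. Of the 32 AG120 cells, 7 (21.9%) had at least 3 of the 5 erythroid genes, against 77.2% of the other Klf1-positive and 3.07% of those Klf1-negative cells. Their erythroid genes thus lay between those of the 2 groups. Doublets were not called, and their part in these cells was not tested.

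Other cell types showed the members too. In 87 AG120 cells with at least 10 UMIs of the mast cell and basophil list, Mpo was seen in 88.5%, Ms4a3 in 94.3% and Elane in 35.6%. In 466 vehicle cells with at least 10 UMIs of the megakaryocyte list, Mpo was seen in 13.7%, against 73.8% of the other vehicle cells. Ms4a3 was seen in 57.9% against 90.9%, and Nkg7 in 66.7% against 82.2%. In the vehicle library Mpo was thus low in both erythroid and megakaryocyte-marked cells. Nkg7 was also less common in both, at 46.4% of the 28 erythroid cells against 80.2% of all thinned vehicle cells, but it fell less than Mpo. Nkg7 was seen in 81.5% of the 54 vehicle cells with at least 5 UMIs of the natural killer and T cell list and in 80.2% of the other vehicle cells. Of the 11 genes of that list, Klrb1c, Ncr1, Gzma, Cd3e, Trbc2 and Il2rb were at 0 in thinned vehicle cells. In the 15 AG120 cells with that list, Nkg7 was seen in 93.3%, against 35.4% of the others.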

How the data were processed

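Single-cell RNA was counted in 1 vehicle and 1 AG120 library of sorted I1DN progenitors. Per the labels' protocols, cells were captured on a 10x Genomics Chromium instrument with a 5′ kit and sequenced on an Illumina instrument, while the design text names a 3′ platform. Reads were processed with Cell Ranger 3.1.0 and Seurat 4.0.4 against mm10/GRCm38, per the submitters' processing notes, although a version of 3.0.2 stands in the headers. The authors deposited matrices of UMI counts, whole numbers for each gene and barcode with no normalization, per the file headers.

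From 4146 vehicle and 4016 AG120 barcodes (56821757 and 96919988 UMIs), cells were kept when they had 500 genes or more and no more than 10% mitochondrial UMIs. Doublets were not called and stayed in. The libraries share 20 barcodes (17 among kept cells), which were kept. Ratios of summed counts, scaled to CPM, carry exact conditional binomial 95% intervals; means carry Poisson and shares Clopper-Pearson intervals. Genes needed at least 500 UMIs over both libraries, and at least 50 thinned UMIs for ratios within Mpo-rich cells. Shares, correlations and Klf1 classes were read after thinning each cell to 6500 UMIs (1 seeded draw). No test and no p-value was computed, since each group has 1 library. The intervals of ratios were tested on simulated counts, and the thinning on barcodes of the AG120 library. The Poisson and Clopper-Pearson intervals were not tested in this way. Promoter windows came from RefSeq (all 7 members matched) and gene spans from GENCODE on GRCm38. Python 3.11.15, numpy 2.4.6 and scipy 1.17.1 were used.

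The members, gene lists and alternatives were chosen with earlier results of these data known. Named genes are the members, up to 6 genes of each list in its written order, the 8 genes most like the summed members and the 3 most like Elane and Mpo in each library; genes outside this rule were named after their values had been seen: Myb, Chil3, Itgam, Cd3e, Trbc2, Il2rb, Plppr3, Mettl9 and Gm11505.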

Additional observations from a re-analysis of the deposited data

How the results depend on the processing

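The values rest on 1 library per treatment, so no replicate could be left out. No paired analysis was possible because the labels give no replicate numbers and each group has 1 library. The same 6 genes were lower under every alternative run. Elane counted as higher, making 1 higher, without neutrophil-like cells, with each cell weighted equally, with thinned cells and without the 1% of cells richest in members; the cause was not tested.

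The median log2 ratio of the members was −1.65 with all barcodes, −1.59 with stricter cell filters (1000 genes, 5% mitochondrial), −1.64 without neutrophil-like cells, −1.11 with each cell equal, −1.16 with thinned cells, −1.79 without the richest 1% and −1.49 with median scaling. In the same order, median scaling left out since it cannot change it, Elane minus Mpo was 1.65, 1.65, 2.31, 2.14, 2.04 and 2.09, and the log2 ratio of Elane ran from 0.00 to 1.03.

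The share of cells with at least 4 genes, vehicle then AG120, was 27.1% and 8.08% at 3000 UMIs, 55.3% and 11.4% without thinning, and 26.5% and 7.50% when a gene needed 2 UMIs. Thinning limits which low genes can be seen, Elane and Igsf6 above all.

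The log2 ratio of Klf1-positive over Klf1-negative cells, −1.71 in the vehicle and −4.40 in the AG120 library, kept its sign throughout. It was −1.85 and −4.22 with all barcodes, −2.03 and −3.84 at 3000 UMIs, −1.56 and −4.99 without thinning, −2.32 and −4.81 with 2 Klf1 UMIs, −3.50 and −5.03 with 3 of 5 erythroid genes, and −1.54 and −3.85 without the richest 1%. In the AG120 library it was also −4.55 with stricter filters, −4.22 without neutrophil-like cells, −4.30 with another seed and −4.16 with equal weight to 5 depth classes.

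Of alternatives added after the data were seen, the log2 ratio of Elane in Mpo-rich cells (1.47) was 1.81 with 16 Mpo UMIs, 1.26 with 64, 1.80 without neutrophil-like cells and 1.74 without the 10 richest cells. The median correlation (0.29 and 0.62) was 0.22 and 0.46 at 3000 UMIs and 0.15 and 0.39 among cells with at least 10 summed UMIs, where choosing by the sum itself lowers it. Over these results and alternatives, 47 values moved past their margin and 31 did not. Of the log2 ratios of single genes, 38 moved and 18 did not, and none changed sign. The cause was not tested.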
